A study of Mus musculus with 43 samples.

Results

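Colonoids, organoids grown from the normal epithelium of the mouse colon, were cultured for 6 days with 4 µM regorafenib (R4) or with the vehicle DMSO (Ve), and their RNA was sequenced to ask how untransformed epithelium responds to this drug. The comparison holds 6 of the 43 samples of the series, 3 Ve and 3 R4, chosen by their labels alone. All 6 came from 3 lines, M41, M40 and M1, each started from 1 adult male mouse aged 2 months and each grown under both conditions, so that every R4 sample has a Ve sample of the same mouse. The mice carried Vil-cre/ERT2, a tamoxifen-inducible Cre driven in intestinal epithelium by the villin promoter, with both Apc alleles intact (Apc wt/wt), and had received tamoxifen, so Ve and R4 share the transgene and the injection. The lines grew in Matrigel with EGF, R-spondin 1, Noggin and Wnt3a in the medium, and with the ROCK inhibitor Y-27632 for a short time after replating. Colonoids of the same lines with 8 µM regorafenib (R8, 3 samples) and tumoroids with the same agents and time (3 Ve, 3 R4 and 3 R8 samples), which came from tamoxifen-injected Vil-cre/ERT2 Apc flox/flox mice and had lost Apc, are used to place the response and to estimate the spread between samples.

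Regorafenib is an oral inhibitor of many kinases, among them receptors for VEGF, PDGF and FGF, KIT and RET, and is given in advanced colorectal cancer. The colonic crypt is renewed from stem cells at its base, held there by Wnt signals, whose daughters divide and then mature into absorptive colonocytes, mucus-filled goblet cells, hormone-releasing enteroendocrine cells and tuft cells. Transcription factors such as CDX1, CDX2 and HNF4A maintain colonic identity, and the epithelium rests on a basement membrane of laminins and type IV collagen that it makes in part itself and binds through integrins. Injured epithelium can lose its mature markers and take on a regenerative program that includes matrix and YAP target genes.

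The values are CP20M, reads per gene scaled to 20000000 reads per library. One of the 6 libraries was far shallower than the rest. The R4 library of line M41 held 512591 reads, against 16548003 for M40 and 12041981 for M1 with R4 and 6590317, 16864641 and 14061191 for the Ve libraries of M41, M40 and M1. In that library 1 read was worth 39.0 CP20M, so that a listed value of 40 is a single read, whereas 1 read was worth 1.19 to 3.03 CP20M in the other 5. Ribosomal RNA genes, mitochondrial ones included, and a few genes grouped with them, such as Lars2, took 19.9% of its reads. This share was 1.72% to 4.64% in the others. Protein-coding genes took 74.2%, against 90.8% to 94.7%. Of the 10426 genes tested, 248 were listed at 0 in it and 3 in the Ve library of the same line. The median gene changed by -0.54 on the log2 scale in M41, by -0.05 in M40 and by -0.05 in M1. The part of depth and of the ribosomal share in the results was not tested, and the counts of genes, the gene lists and the leading genes are therefore given with and without line M41.

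The samples carried the label of epithelium. Of 8 epithelial markers (Epcam, Cdh1, Krt8, Krt18, Krt19, Vil1, Cdx1 and Cdx2) all 8 were tested, and their summed level was 250164, 216722 and 194644 CP20M in Ve and 349595, 240864 and 169896 in R4, for M41, M40 and M1 in that order, which is the order used for 3 values throughout. Krt19 was the most abundant of them in every sample and made up much of the sum, while 2 of the 8, Cdx1 and Cdx2, were called lower. None of the 8 markers of mesenchymal cells reached the level tested. Their sum was 123, 66 and 21 CP20M in Ve and 118, 13 and 23 in R4, where the 118 of M41 came from Col1a1 alone, and between 2 and 7 of the 8 were at 0 in each sample. Lum was at 0 in all 6 and Thy1, Dcn and Col1a2 were at 0 in the 3 R4 samples. The 3 markers of smooth muscle summed to at most 40 CP20M in any of the 6 samples. The sum was at most 83 for 4 immune markers and at most 79 for 3 endothelial markers. Lyz2 was at 0 in the 3 R4 samples. Of a wider list of 12 immune and endothelial genes, 1 reached the level tested. It was not called, with a log2 change of 0.34 and 0.20 without M41. Since 1 read is worth 39.0 CP20M in the M41 R4 library, its zeros say little. The part of other cell types in the changes below was not tested.

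Of the 10426 genes with at least 200 CP20M in 2 or more of the 6 samples, 1198 passed the test of R4 against Ve (limma with the line as a block, adjusted p under 0.05 and a change of at least 1.5-fold), 11.5% of those tested. Of these, 421 were higher with R4 (4.04% of genes tested) and 777 were lower (7.45%). Without line M41, 1248 genes passed (12%), of which 661 were higher (6.34%) and 587 lower (5.63%). The counts of calls in each gene list below are to be read beside these shares. A gene that reached 200 CP20M only in R4 could only be called higher, and one that did so only in Ve only lower. The lists were written with earlier results of these data known, so their counts are not independent evidence of a direction. The spread was estimated from 18 organoid samples (6 lines with Ve, R4 and R8). Fitted on the 6 samples alone, no gene passed, while 1319 had an unadjusted p under 0.05, and without line M1 548 genes passed. The balance of directions thus changed with line M41 left out, since 35.1% of the calls were higher with it and 53% without it. With all lines kept, edgeR on whole reads gave 58.5% higher. TMM scaling, which adjusts for a skewed composition of reads, also moved the higher share to 54%, and the median change of all genes tested from -0.22 to -0.04. In both fits 340 genes were higher and 457 were lower, none was called in opposite directions, 81 higher and 320 lower calls needed M41, and 321 higher and 130 lower calls appeared only without it. Single genes below are described as called when all 3 lines are fitted, and it is said where the call was lost without M41. The other lines mattered as well, since 70 of the 103 named genes called were still called without M40 and 68 without M1. Of those described below, the calls on Piezo2, Cdx1, Dmbt1, Ern2, Itgav, Actn1, Itgb4, Fgfr2, Plat, Stard4, Pigr, Inhba, Thbs1 and several calls also lost without M41 were lost whichever of these lines was left out. Those on Agr2, Muc2, Fcgbp, Sp5, Axin2, Tln2, Flna and Bst2 were lost without M40, and those on Cdca7, Tiam1, Lif, Ctsl, Car9, Gsr and Irf7 without M1. Of these the log2 change of Muc2 went from -3.28 to -1.95 and that of Plat from 1.39 to 0.85 without M40. For Plat it was 1.61 without M1. Other calls were lost without M40 at about the same log2 change. Examples are Flna (0.98 and 0.99 without M40), Agr2 (-3.78 and -3.84) and Sp5 (1.79 and 1.88). Called genes outside the 103 were not followed singly without M40 or M1.

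**Figure D1:**
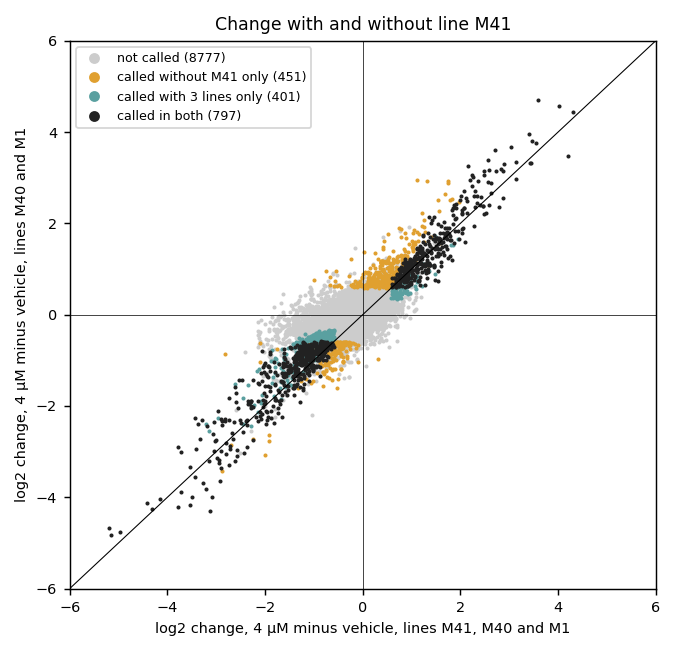
Log2 change with 4 µM regorafenib fitted on 3 lines (x axis) and on lines M40 and M1 alone (y axis), 1 point per gene tested. The 797 genes called in both fits lie along the diagonal. The fits share lines M40 and M1 and these genes were chosen by their calls, so this agreement was partly built in.

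The 12 largest rises included Lamb1, Igfbp7, Fn1 and Tnc of the matrix list. Lamb1, Igfbp7, Vim, Piezo2, Bmp6, Tnc, Fermt2 and Lgals1 were below 200 CP20M in every Ve sample and were tested through R4 alone. Lamb1, the laminin beta 1 chain, was at 98, 111 and 30 CP20M in Ve and at 1873, 2018 and 1509 in R4. All 3 lines moved from near the floor to similar high levels, with a log2 change of 4.30 ± 0.37 (SE, limma adjusted p = 0.000192) and 4.45 without M41. Igfbp7, a secreted protein that binds growth factors and matrix, was at 161, 92 and 96 CP20M in Ve and at 8935, 750 and 2092 in R4, a log2 change of 4.20 ± 0.56 (limma adjusted p = 0.00141) and 3.48 without M41. The shallow M41 library gave its highest value, while the lowest R4 value still stood above every Ve value. Vim, which encodes the intermediate filament vimentin, was at 55, 80 and 3 CP20M in Ve and at 547, 2505 and 500 in R4, with a log2 change of 4.03 ± 0.30 (limma adjusted p = 0.000113) and 4.58 without M41. No Ve sample came near the R4 samples, and line M40 was highest under both conditions.

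The largest falls included Isx, Aqp4, Car1 and Aoc1 of the absorptive list and Clca1 and Agr2 of the goblet list. Of these, Isx, Aqp4, Aoc1, Clca1 and Agr2 were below 200 CP20M in every R4 sample and were tested through Ve alone. Isx, an intestine-specific homeobox factor that controls vitamin A uptake genes, was at 1867, 2052 and 1978 CP20M in Ve and at 40, 117 and 79 in R4. It was the gene with the tightest Ve values among the 12 largest falls, and its log2 change was -4.41 ± 0.25 (limma adjusted p = 1.32e-05) and -4.13 without M41. Aqp4, a water channel of the colonic surface, was at 1515, 975 and 2376 CP20M in Ve and at 0, 31 and 52 in R4, with a log2 change of -5.20 ± 0.75 (limma adjusted p = 0.00208) and -4.67 without M41. Clca1, a protein secreted with goblet cell mucus, was at 3366, 5060 and 651 CP20M in Ve and at 40, 106 and 14 in R4, with a log2 change of -5.15 ± 0.47 (limma adjusted p = 0.000281) and -4.82 without M41. The groups did not overlap for any of these 3 genes. Here and below, such separation is stated for genes mostly chosen for their change. The share of all genes tested that show it is not given here.

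**Figure D2:**
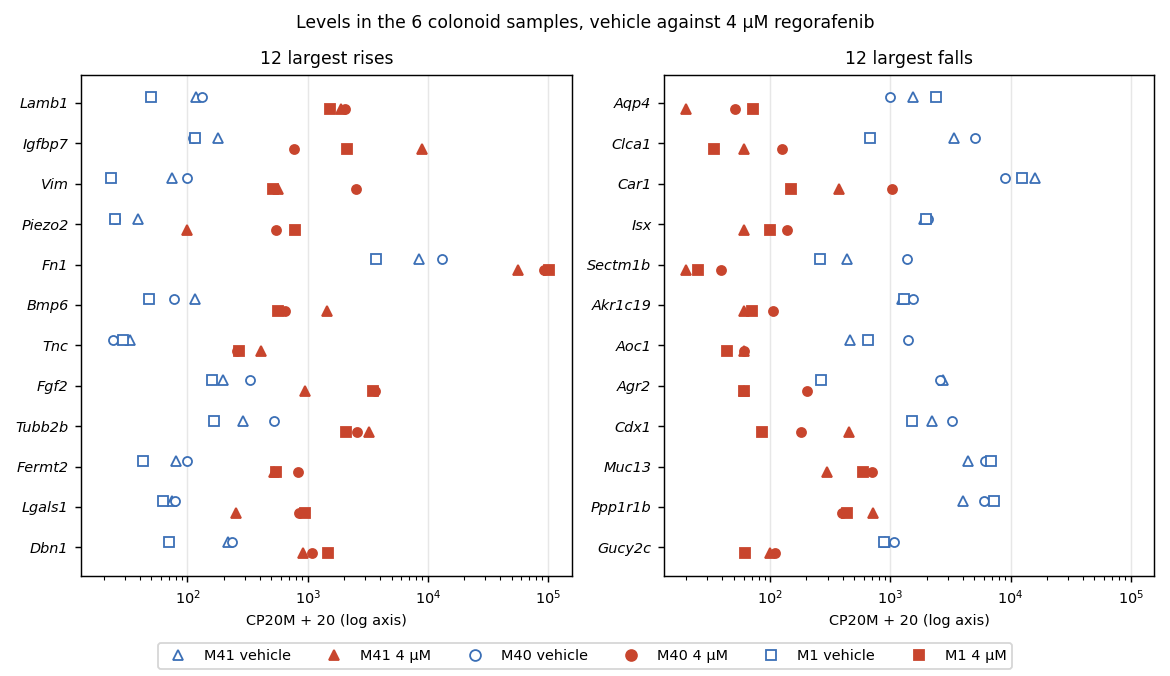
CP20M plus 20 (log axis) in each of the 6 colonoid samples for the 12 largest rises and the 12 largest falls, with open blue symbols for vehicle, filled red symbols for 4 µM regorafenib and 1 shape per line. For all 24 genes the red and blue symbols fall on opposite sides without overlap.

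The start regions of the genes at these extremes are shown so that their sequence can be read beside the changes. The windows are RefSeq promoters on GRCm38.p6, from 250 bases before to 50 bases after the gene start. They are given for the 3 largest rises in the fit on 3 lines and for Isx. Without M41, Piezo2 had a larger log2 change than Igfbp7 (4.71 against 3.48). Clca1 and Car1 are named only. Lamb1 lies on the plus strand at chr12:31265043-31265342, Igfbp7 on the minus strand at chr5:77407996-77408295, Vim on the plus strand at chr2:13574061-13574360 and Isx on the plus strand at chr8:74872924-74873223. Capitals mark a match to one of 4 motifs searched on both strands, AP-1 (TGANTCA), TEAD (GGAATG), TCF/LEF (CTTTGA) and HNF4 (CAAAGTCCA).
Lamb1: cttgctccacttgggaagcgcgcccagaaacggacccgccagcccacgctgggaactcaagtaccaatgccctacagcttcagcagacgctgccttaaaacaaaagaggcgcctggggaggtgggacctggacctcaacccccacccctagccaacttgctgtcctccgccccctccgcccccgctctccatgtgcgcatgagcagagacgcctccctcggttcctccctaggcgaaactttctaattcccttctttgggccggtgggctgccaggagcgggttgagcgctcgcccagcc
Igfbp7: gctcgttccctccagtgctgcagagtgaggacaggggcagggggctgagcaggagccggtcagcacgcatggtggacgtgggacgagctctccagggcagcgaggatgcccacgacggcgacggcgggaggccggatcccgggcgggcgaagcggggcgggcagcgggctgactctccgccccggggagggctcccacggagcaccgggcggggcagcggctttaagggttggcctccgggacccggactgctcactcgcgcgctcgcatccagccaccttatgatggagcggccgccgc
Vim: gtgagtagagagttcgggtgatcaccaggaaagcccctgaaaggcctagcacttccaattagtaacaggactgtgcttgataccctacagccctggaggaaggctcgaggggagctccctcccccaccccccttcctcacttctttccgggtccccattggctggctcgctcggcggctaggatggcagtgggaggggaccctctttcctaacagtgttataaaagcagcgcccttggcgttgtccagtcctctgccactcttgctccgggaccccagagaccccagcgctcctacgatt
Isx: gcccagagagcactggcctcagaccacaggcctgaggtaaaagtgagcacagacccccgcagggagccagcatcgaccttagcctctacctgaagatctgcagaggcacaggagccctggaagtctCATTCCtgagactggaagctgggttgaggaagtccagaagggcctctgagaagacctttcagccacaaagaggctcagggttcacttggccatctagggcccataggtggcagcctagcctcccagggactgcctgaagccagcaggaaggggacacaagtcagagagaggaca
The only match in these windows was to the TEAD letters in Isx, read on the minus strand and beginning 124 bases before the start. The AP-1 letters were present in 7.91% of the 27025 promoters of the table, in 4.72% of the 7695 found for genes tested, in 6.05% of the 314 found for genes called higher and in 7.17% of the 586 found for genes called lower. The TEAD letters were present in 14.6%, 11.4%, 13.4% and 10.9% of the same 4 sets. The TCF/LEF letters were present in 16.2%, 11.2%, 10.2% and 11.8%, and the HNF4 letters in 0.496%, 0.351%, 0.637% and 0.512%. These shares describe letters in short windows and were not tested.

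Genes of the basement membrane and matrix list were the group with the most calls in 1 direction. Of its 40 genes 24 were tested, 18 were higher and none was lower with R4, and the median log2 change was 1.34 against -0.22 for all genes tested. Lamb1, Igfbp7 and Tnc, tested through R4 alone, could only be called higher. The filter thus set part of this balance. Without M41, 15 were higher, none was lower and the median was 1.21 against -0.05. The calls on Col18a1, Col4a5 and Agrn were lost without M41, with log2 changes of 1.96, 1.35 and 0.85 with all lines and 1.65, 0.95 and 0.70 without it. The remaining 16 members did not reach the level tested, among them the fibrillar and associated collagens Col5a1, Col6a1 and Col12a1, whose values did not exceed 40 CP20M in any of the 6 samples. The 6 genes of the list not called were Lama5, Lamb2, Lamc1, Nid1, Gpc4 and Sdc4.

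Beside Lamb1 and Igfbp7, described above, the list held several secreted glycoproteins. Fn1, fibronectin, was at 8367, 13095 and 3683 CP20M in Ve and at 56341, 93302 and 102867 in R4. Line M1 went from the lowest to the highest value, and the log2 change was 3.46 ± 0.44 (limma adjusted p = 0.00115) and 3.81 without M41. Tnc, the adhesion-modulating glycoprotein tenascin C, was at 13, 4 and 9 CP20M in Ve and at 391, 236 and 251 in R4, a log2 change of 3.43 ± 0.61 (limma adjusted p = 0.00541) and 3.32 without M41, on a scale that understates the change of so low a gene. Spp1, osteopontin, was at 2131, 2701 and 4293 CP20M in Ve and at 5931, 19078 and 48919 in R4, with a log2 change of 2.59 ± 0.41 (limma adjusted p = 0.00286) and 3.16 without M41. The R4 values of Spp1 spread more than those of Fn1, with M41 lowest, and still lay above every Ve value. Thbs1, thrombospondin 1, was at 771, 1310 and 931 CP20M in Ve and at 2381, 2678 and 7229 in R4, with a log2 change of 1.85 ± 0.54 (limma adjusted p = 0.0465) and 1.98 without M41 (limma adjusted p = 0.0338).

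The epithelial laminin and type IV collagen chains that were called rose by less, while Lama5, Lamb2 and Lamc1 were not called. Lamb3 and Lama3, laminin chains of the epithelial basement membrane, rose with log2 changes of 1.00 ± 0.21 and 1.33 ± 0.34. Col4a1, a network-forming collagen chain of basement membranes, was at 2796, 4439 and 4458 CP20M in Ve and at 15724, 8887 and 11027 in R4, with a log2 change of 1.59 ± 0.31 and 1.15 without M41. Col4a2, which lies head to head with Col4a1 on the opposite strand, had a log2 change of 1.33 ± 0.32 and 0.93 without M41, and reads of the pair cannot be separated here where the genes overlap, because the strand used in counting is not stated. Among enzymes and proteoglycans, Bmp1, which trims procollagens, was at 204, 152 and 212 CP20M in Ve and at 1366, 874 and 1181 in R4, a log2 change of 2.46 ± 0.31 and 2.38 without M41. Gpc1, the cell-surface proteoglycan glypican 1, was at 650, 974 and 934 CP20M in Ve and at 3239, 2383 and 2885 in R4, a log2 change of 1.72 ± 0.21 and 1.44 without M41. Sdc1, syndecan 1, rose by a log2 change of 0.68 ± 0.15, whereas Sdc4 had 0.12 ± 0.12 and was not called. Igfbp3, a carrier of insulin-like growth factors, was at 371, 333 and 200 CP20M in Ve and at 1327, 2204 and 1274 in R4.

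**Figure D3:**
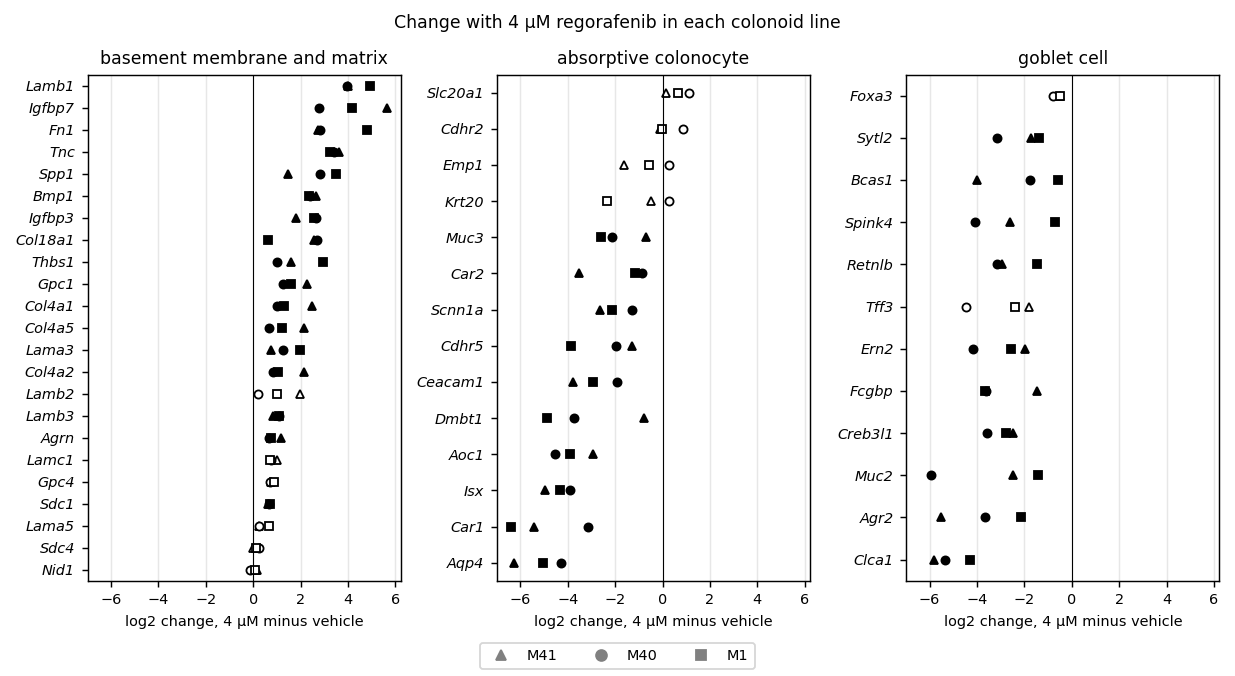
Log2 change from vehicle to 4 µM regorafenib (x axis) in each of the 3 colonoid lines for tested members of 3 gene lists, filled where the gene was called. The matrix genes called lie right of 0 and the absorptive and goblet genes called lie left of 0 in every line.

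Receptors that bind this matrix changed in part. Of 23 integrin and focal adhesion genes tested, 5 were higher and 1 was lower, with a median log2 change of 0.06, and without M41 7 were higher and 1 was lower, with a median of 0.37. Itga5, the alpha chain of the fibronectin receptor, was at 82, 91 and 93 CP20M in Ve and at 274, 417 and 515 in R4, with a log2 change of 1.92 ± 0.27 (limma adjusted p = 0.00196) and 2.11 without M41. Itgav, the alpha chain of vitronectin receptors that also bind osteopontin, rose by 1.11 ± 0.31, and the hemidesmosomal chain Itgb4 by 0.63 ± 0.18. The actin cross-linkers Flna and Actn1 rose by 0.98 ± 0.21 and 0.97 ± 0.25. Itgb1, the common beta chain, was at 10073, 11388 and 11271 CP20M in Ve and at 8038, 22416 and 21528 in R4. The lines diverged for Itgb1, which was lower only in the shallow M41 library, and it was called only without M41 (log2 change of 0.95, limma adjusted p = 0.00498, against 0.53 and 0.227 with all lines). Tln2, a talin linking integrins to actin, fell by 1.19 on the log2 scale, while Tln1, Vcl, Pxn, Zyx and Ptk2 were not called.

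Further genes among the 12 largest rises lay outside the matrix list. Fermt2, the integrin activator kindlin 2, was at 61, 80 and 23 CP20M in Ve and at 508, 805 and 522 in R4, with a log2 change of 3.13 ± 0.25 (limma adjusted p = 0.000113) and 3.35 without M41. Tubb2b, a tubulin best known from neurons, was at 268, 502 and 146 CP20M in Ve and at 3200, 2545 and 2077 in R4, and Dbn1, the actin-binding drebrin, at 198, 215 and 50 in Ve and at 898, 1070 and 1447 in R4. Lgals1, the lectin galectin 1, was at 55, 59 and 43 CP20M in Ve and at 235, 827 and 937 in R4. For each of these 4 genes the R4 samples lay above all Ve samples. Piezo2, a mechanically gated ion channel, was at 19, 5 and 5 CP20M in Ve and at 79, 523 and 764 in R4, where the M41 value is 2 reads, and its log2 change was 3.59 ± 0.76 with all lines and 4.71 without M41. Bmp6, a secreted bone morphogenetic protein, was at 95, 57 and 28 CP20M in Ve and at 1444, 633 and 549 in R4.

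Genes of epithelial-mesenchymal transition (EMT) went both ways. Of its 27 genes 16 were tested, 5 were higher and 4 lower, with a median log2 change of -0.07, and 5 and 2 without M41. The higher members were Vim, Fn1, Tnc, Itga5 and Tgfb1, and Fn1 and Tnc are matrix genes already counted above. Tgfb1, a growth factor that can drive EMT, was at 474, 566 and 383 CP20M in Ve and at 859, 816 and 658 in R4, with a log2 change of 0.70 ± 0.15 (limma adjusted p = 0.0117) and 0.63 without M41. The EMT transcription factors Snai1, Snai2, Twist1, Twist2, Zeb2 and Prrx1 were at 40 CP20M or below in all 6 samples, and Zeb1 was at 7, 14 and 6 in Ve and at 40, 65 and 90 in R4, below the level tested. Cdh1, which encodes E-cadherin, was at 20670, 26111 and 26381 CP20M in Ve and at 10496, 30975 and 26278 in R4, and was not called, with a log2 change of -0.25 with all lines and 0.12 without M41. Ovol1, a factor that restrains EMT in epithelia, and Esrp2, an epithelial splicing regulator, fell with log2 changes of -1.70 and -0.74. The falls of Esrp1 (-0.78, and -0.39 without M41) and of the tight junction gene Ocln (-0.94 and -0.55) were not called without M41.

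Of 12 colonic identity genes, all tested, 5 were lower, 7 were not called and none was higher, with and without M41, and the median log2 change was -0.44 and -0.47. Cdx2, the homeobox factor that specifies intestinal epithelium, was at 2365, 1541 and 2064 CP20M in Ve and at 664, 434 and 329 in R4, with a log2 change of -2.05 ± 0.28 (limma adjusted p = 0.00174) and -2.18 without M41. Its relative Cdx1 was at 2207, 3262 and 1484 CP20M in Ve and at 430, 160 and 65 in R4, with a log2 change of -3.55 ± 0.87 (limma adjusted p = 0.0245) and -4.17 without M41. Every R4 value of both genes lay below every Ve value, by a wide margin. Hnf4a, a nuclear receptor of the absorptive program, was at 8413, 13112 and 7476 CP20M in Ve and at 2693, 4086 and 1794 in R4, a log2 change of -1.79 ± 0.31 and -1.86 without M41, with the antisense Hnf4aos at its locus. Lgals4, an abundant epithelial lectin, had a log2 change of -2.62 ± 0.50 with all lines and -1.59 without M41. Against these stood Epcam at 13945, 17835 and 14201 CP20M in Ve and at 6087, 16319 and 15025 in R4, Krt8 with a log2 change of 0.20 ± 0.29 and Vil1 with -0.13 ± 0.19, none of which was called.

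Of the absorptive colonocyte list, 14 of 25 genes were tested, 10 were lower and none was higher, with a median log2 change of -2.19 against -0.22 for all genes. Without M41, 9 were lower and 1, the phosphate carrier Slc20a1, was higher, with a median of -2.39, and the fall of Car2 (log2 change of -1.85 with all lines and -1.01 without M41) was no longer called. Car1, a carbonic anhydrase of surface colonocytes, was at 15957, 8991 and 12531 CP20M in Ve and at 352, 1012 and 130 in R4, with a log2 change of -4.98 ± 0.88 (limma adjusted p = 0.00537) and -4.76 without M41. Aoc1, an enzyme that breaks down histamine, was at 438, 1382 and 631 CP20M in Ve and at 40, 40 and 24 in R4. Ceacam1, an adhesion molecule of the brush border, was at 18121, 21711 and 22902 CP20M in Ve and at 1288, 5735 and 3010 in R4, with a log2 change of -2.88 ± 0.36 and -2.42 without M41. No R4 value of these 3 genes reached the lowest Ve value. Dmbt1, a mucosal defence glycoprotein, was at 1348, 1069 and 2825 CP20M in Ve and at 781, 62 and 77 in R4, so that M41 moved least, and its log2 change was -3.13 ± 0.77 with all lines and -4.30 without M41. Scnn1a, the alpha subunit of the epithelial sodium channel, the brush border protocadherin Cdhr5 and the membrane mucin gene Muc3 fell with log2 changes of -2.03, -2.36 and -1.82. Krt20, Cdhr2, Emp1 and Slc20a1 were not called with all lines. Unlike Car1, some other markers of mature surface cells were hardly present in either group. Car4, Aqp8, Slc9a3, Guca2b, Guca2a and Alpi did not exceed 40 CP20M in any of the 6 samples.

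Of the 12 largest falls, 5 others were in none of the lists. Gucy2c, the receptor for the gut peptides guanylin and uroguanylin, was at 890, 1056 and 865 CP20M in Ve and at 79, 90 and 42 in R4, with a log2 change of -3.44 ± 0.56 (limma adjusted p = 0.00347) and -3.56 without M41. Muc13, a membrane mucin, was at 4413, 6129 and 6883 CP20M in Ve and at 274, 682 and 567 in R4, and Ppp1r1b, a phosphatase inhibitor known as DARPP-32, at 4018, 6014 and 7264 in Ve and at 703, 373 and 419 in R4. Akr1c19, an aldo-keto reductase, was at 1239, 1509 and 1278 CP20M in Ve and at 40, 86 and 50 in R4, with a log2 change of -4.15 ± 0.37 and -4.03 without M41. In all 4 genes every R4 value lay far below the lowest Ve value. Sectm1b, a secreted and transmembrane protein, was at 416, 1345 and 239 CP20M in Ve and at 0, 19 and 5 in R4.

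Goblet cell genes fell in a similar share. Of 16 genes 12 were tested, 10 were lower and none was higher, with a median log2 change of -2.89, and without M41 9 were lower and the median was -3.05. The lines began from different levels. Muc2, the gel-forming mucin of the colon, was at 2267, 4154 and 93 CP20M in Ve and at 391, 48 and 22 in R4, so that the R4 value of M41 exceeded the Ve value of M1 and the groups overlapped across lines, while each line fell. Its log2 change was -3.28 ± 0.79 (limma adjusted p = 0.0222) and -3.68 without M41, and it was not called without line M40, where the change was -1.95, or without the block on line. Agr2, a disulfide isomerase needed for mucin folding, was at 2747, 2550 and 245 CP20M in Ve and at 40, 181 and 40 in R4, with a log2 change of -3.78 ± 0.79 and -2.91 without M41. Fcgbp, a mucus network protein, was at 1333, 3536 and 429 CP20M in Ve and at 469, 269 and 15 in R4. Line M1 had the lowest Ve level of Muc2, Agr2 and Fcgbp. Tff3, a trefoil peptide co-secreted with mucin, was at 2771, 2866 and 138 CP20M in Ve and at 781, 112 and 10 in R4, and was called only without M41 (log2 change of -3.42, limma adjusted p = 0.0317, against -2.88 and 0.0609 with all lines). Creb3l1, a membrane-bound transcription factor of secretory cells, and Ern2, the goblet cell form of the stress sensor IRE1, fell with log2 changes of -2.95 and -2.90 (-3.19 and -3.36 without M41), and Retnlb, a bactericidal goblet cell peptide, with -2.52. The calls on Spink4 (log2 changes of -2.46 and -2.39 without M41) and Bcas1 (-2.13 and -1.18) were lost without M41. Spdef and Atoh1, transcription factors of the secretory lineage, stayed below the level tested, with Spdef at 113, 293 and 8 CP20M in Ve and at 0, 10 and 0 in R4.

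Enteroendocrine and tuft cell genes gave no call. Of 18 genes 6 were tested and none passed, with and without M41, although the median log2 change was -1.56 and -1.41. Chga, the granule protein chromogranin A, was at 271, 375 and 8 CP20M in Ve and at 40, 78 and 2 in R4, with a log2 change of -1.55 ± 0.56 (limma adjusted p = 0.089). Neurog3, the factor that commits cells to the endocrine fate, was at 101, 285 and 10 CP20M in Ve and at 40, 21 and 0 in R4. Each line had less of both with R4, and M1 had the lowest values. In the RNA of whole cultures, fewer cells of a type and less RNA per cell cannot be told apart, for these and for the goblet and absorptive genes alike.

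Stem cell and Wnt target genes were mixed. Of 20 tested from 28, 2 were higher and 5 lower, with a median log2 change of -0.50, and 3 and 4 without M41, with a median of -0.14. Axin2, a direct Wnt target that restrains the pathway, was at 1366, 2134 and 2366 CP20M in Ve and at 430, 1065 and 1851 in R4, with a log2 change of -0.99 ± 0.28 (limma adjusted p = 0.0415) and -0.67 without M41, and the R4 value of M1 lay above the Ve value of M41. The call on Axin2 was lost with edgeR (-0.67), with array weights (-0.52), without the block on line, without line M40 and without the M41 R4 sample alone (-0.55). Tiam1, an exchange factor for RAC, was at 771, 1572 and 1899 CP20M in Ve and at 313, 467 and 610 in R4, and Plce1, a phospholipase C, at 1585, 2111 and 3023 in Ve and at 703, 670 and 537 in R4. Cdca7, a chromatin protein of dividing cells, had a log2 change of -1.63 ± 0.32 and -1.47 without M41. Lgr5, the R-spondin receptor that marks crypt stem cells, was at 146, 500 and 561 CP20M in Ve and at 40, 183 and 378 in R4, and was not called. Ascl2, a transcription factor of those cells, was at 125, 62 and 129 CP20M in Ve and at 0, 11 and 5 in R4, below the level tested. In the other direction, Mex3a, an RNA-binding protein of slow-cycling progenitors, was at 359, 743 and 594 CP20M in Ve and at 1405, 1508 and 1947 in R4, with a log2 change of 1.53 ± 0.30 (limma adjusted p = 0.00864) and 1.34 without M41. Sp5, a direct Wnt target, was at 76, 105 and 65 CP20M in Ve and at 391, 362 and 248 in R4. For Mex3a and Sp5 the groups did not overlap. Rnf43, Znrf3, Ephb2, Ephb3 and Sox9 were not called.

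Of 25 cell cycle genes tested, 1 was higher and 2 lower, close to the share of calls among all genes, with a median log2 change of -0.41. Without M41 1 was higher and none lower, with a median of -0.65. Mki67, a marker of dividing cells, was at 592, 4532 and 926 CP20M in Ve and at 274, 965 and 725 in R4. M40 stood far above the other lines in Ve, and the log2 change of -1.20 ± 0.87 was not called. Cdkn2a, which encodes the cell cycle inhibitors p16INK4A and p19ARF, was the exception at 1190, 1028 and 897 CP20M in Ve and at 7375, 3082 and 3037 in R4, with a log2 change of 1.97 ± 0.25 (limma adjusted p = 0.00112) and 1.65 without M41. Its neighbour Cdkn2b was at 2814, 2449 and 1858 CP20M in Ve and at 4136, 4458 and 4196 in R4, and was not called (log2 change of 0.86 ± 0.29, limma adjusted p = 0.0746). Cdkn1a, the p53-induced inhibitor p21, had a log2 change of -0.14 ± 0.18. Tyms, an enzyme of nucleotide synthesis, and the cell cycle inhibitor Cdkn1b were called lower with all lines only, with log2 changes of -1.07 and -1.01, against -0.81 and -0.88 without M41 (limma adjusted p = 0.0809 and 0.0842).

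The genes that encode targets of regorafenib were mostly below the level tested. Of 20, 8 reached the level tested, and 2 were lower and none higher, with a median log2 change of -0.42, and 1 and none without M41, with a median of -0.26. Kdr and Flt1, receptors for VEGF, Pdgfra, and Fgfr1 did not exceed 79 CP20M in any of the 6 samples, the 79 being 2 reads in the M41 R4 library, and Kit, the stem cell factor receptor, was at 67, 86 and 8 in Ve and at 0, 9 and 2 in R4. Fgfr2, an FGF receptor of epithelia, was at 510, 1030 and 963 CP20M in Ve and at 313, 417 and 363 in R4, with a log2 change of -1.10 ± 0.28 (limma adjusted p = 0.0265) and -1.31 without M41. The R4 samples lay below all Ve samples. Dmbt1 and many other genes lie on the opposite strand within the Fgfr2 locus, so that its reads can include theirs. The other lower call was lost without M41. Braf, Epha2, Ddr1, Csf1r, Mapk11 and Fgfr4 were not called.

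Among growth factor ligands, 11 of 19 were tested, and 2 were higher and none lower with all lines, with a median log2 change of -0.30, and 2 were higher and 1 lower without M41, with a median of 0.005. Fgf2, a ligand of FGF receptors, was at 177, 311 and 141 CP20M in Ve and at 937, 3631 and 3478 in R4, with a log2 change of 3.40 ± 0.50 (limma adjusted p = 0.00235) and 3.95 without M41. Reads of Fgf2 can include those of the overlapping Nudt6 on the opposite strand. Pdgfb, the B chain of platelet-derived growth factor, was at 453, 1065 and 659 CP20M in Ve and at 2068, 2053 and 2804 in R4, with a log2 change of 1.71 ± 0.23 (limma adjusted p = 0.00141) and 1.50 without M41. For both ligands every R4 value exceeded every Ve value. Pdgfa was at 1524, 1899 and 1744 CP20M in Ve and at 1912, 821 and 999 in R4, and was lower only without M41 (log2 change of -0.99, limma adjusted p = 0.0071). Vegfa, Kitl, Fgf13, Tgfa, Areg, Ereg, Hbegf and Btc were not called.

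Targets and feedback inhibitors of the ERK pathway did not move together. Of 22 tested, 3 were higher and 3 lower, with a median log2 change of -0.05 against -0.22 for all genes tested. Each direction held 13.6% of the list, against 4.04% higher and 7.45% lower of all genes. Without M41 4 were higher and 1 lower, with a median of 0.04. Egr1, an immediate early factor induced by ERK, was at 4146, 4183 and 2958 CP20M in Ve and at 157, 1256 and 764 in R4, with a log2 change of -2.73 ± 0.49 (limma adjusted p = 0.00583) and -1.82 without M41. Fos, another immediate early gene, was at 3697, 4112 and 4004 CP20M in Ve and at 1054, 1807 and 2038 in R4, and its call was lost without M41 (log2 change of -1.07, limma adjusted p = 0.0817). By contrast Spred3, a member of a family of ERK pathway inhibitors, was at 140, 234 and 210 CP20M in Ve and at 469, 688 and 872 in R4, with a log2 change of 1.68 ± 0.18 (limma adjusted p = 0.000489) and 1.72 without M41. The negative feedback genes Dusp6, Spry1, Spry2, Spred1 and Spred2 were not called. Dusp4 was higher with all lines (1.20 ± 0.29) and had a log2 change of 0.64 (limma adjusted p = 0.0623) without M41. Myc, a growth-promoting factor, was at 5946, 5482 and 7785 CP20M in Ve and at 2146, 4673 and 4767 in R4, with a log2 change of -0.80 ± 0.20 that was called with all lines and -0.47 that was not without M41.

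Of the fetal-like and YAP target list, 27 of 29 genes were tested, and 6 were higher and 2 lower with and without M41, though 1 of the lower genes differed, with a median log2 change of 0.13 and 0.27. Ctgf, also named Ccn2 and a direct YAP target, was at 6868, 7905 and 11379 CP20M in Ve and at 23254, 28045 and 36695 in R4, with a log2 change of 1.76 ± 0.23 (limma adjusted p = 0.00145) and 1.76 without M41. Clu, a chaperone of regenerating crypts, was at 29040, 38189 and 20258 CP20M in Ve and at 63949, 84241 and 93807 in R4, with a log2 change of 1.50 ± 0.23 and 1.68 without M41. Amotl1, a YAP-binding protein of cell junctions, rose by 1.51 ± 0.23, and Marcksl1, Cnn3 and Gja1 by 1.18 ± 0.19, 1.12 ± 0.29 and 0.86 ± 0.24. Tead4, a DNA-binding partner of YAP, fell by 1.24 on the log2 scale. Anxa8 was called lower only with all lines, with log2 changes of -1.28 and -0.69 without M41. Ly6a, a marker of regenerating and fetal-like epithelium, was at 22014, 14840 and 17904 CP20M in Ve and at 8194, 24400 and 24571 in R4, and was not called, with a log2 change of -0.08 with all lines and 0.59 without M41. Yap1 was at 3797, 4469 and 4734 CP20M in Ve and at 2732, 4615 and 4596 in R4, and Anxa1, Areg and Cyr61 were likewise not called.

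**Figure D4:**
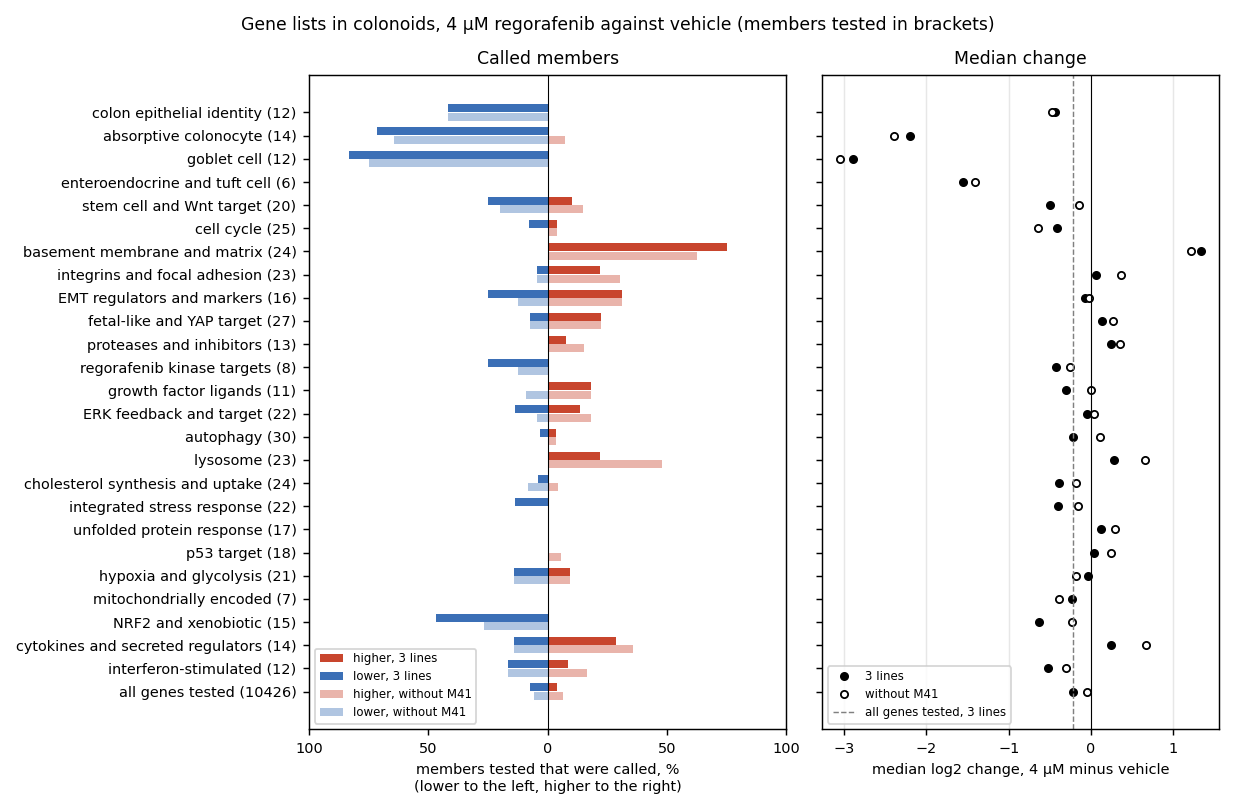
Share of the tested members of each gene list that were called lower (to the left) or higher (to the right), and the median log2 change of the tested members, for the fit on 3 lines and the fit without line M41, with the number of members tested in brackets. Matrix genes reach 75% called higher and goblet and absorptive genes 83.3% and 71.4% called lower, against 4.04% and 7.45% of all genes tested. The lists were written with earlier results of these data known, so this contrast is a description and not independent evidence.

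Lysosomal genes were the list in which leaving out M41 changed the count most in favour of rises. Of 23 tested, 5 were higher with all lines and 11 without M41, none was lower in either fit, and the median log2 change was 0.28 and 0.65. Ctsl, the protease cathepsin L, was at 6167, 5475 and 6033 CP20M in Ve and at 9638, 13487 and 14633 in R4, with a log2 change of 1.07 ± 0.19 (limma adjusted p = 0.0055) and 1.29 without M41. Psap, the precursor of the saposins that activate lipid hydrolases, was at 6556, 7154 and 8145 CP20M in Ve and at 16544, 12850 and 14533 in R4. The groups did not overlap for Ctsl or Psap. Lamp2, a lysosomal membrane protein, was at 2714, 2744 and 2912 CP20M in Ve and at 937, 5212 and 5609 in R4, so that M41 went the other way, and it was called only without that line. Autophagy genes gave 1 higher and 1 lower call of 30 tested (3.33% each, below the 4.04% and 7.45% of all genes), with a median log2 change of -0.22, the same as that of all genes, and 0.11 without M41. The lower call, on the lysosomal regulator Tfeb (log2 change of -1.06), was lost without M41, where the change was -1.09 (limma adjusted p = 0.0843). Gramd1a, a cholesterol transporter that acts in autophagosome formation, was at 249, 139 and 239 CP20M in Ve and at 508, 525 and 1226 in R4, with a log2 change of 1.67 ± 0.25 (limma adjusted p = 0.00235) and 2.02 without M41. The core genes Atg5, Atg7, Becn1, Map1lc3b, Sqstm1 and Ulk1 were not called.

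Among stress lists, none of 17 unfolded protein response genes and none of 18 p53 targets was called with all lines, with medians of 0.12 and 0.04, against 4.04% higher and 7.45% lower of all genes. Without M41 the medians were 0.29 and 0.25, and 1 p53 target, the death receptor Tnfrsf10b, was higher. Of 22 integrated stress response genes, 3 were lower with all lines, with a median of -0.40, and none without M41, with a median of -0.15. These were Psat1, an enzyme of serine synthesis, with log2 changes of -1.37 and -1.14 without M41, Cebpg, with -0.94 and -0.53, and Vldlr, a lipoprotein receptor, with -0.67 and -0.58, the last just short of the size required. Of 24 cholesterol genes 1 was lower with all lines (median -0.39), and 1 was higher and 2 lower without M41 (median -0.18). The sterol carrier Stard4 was called lower in both fits, with log2 changes of -0.94 and -0.98. Atf4, the central factor of the integrated stress response, was at 10564, 4071 and 7300 CP20M in Ve and at 3434, 4812 and 4063 in R4. The 7 mitochondrially encoded genes tested gave no call, with a median log2 change of -0.23 and -0.38 without M41.

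Among 21 hypoxia and glycolysis genes tested, 2 were higher and 3 lower, with and without M41, with medians of -0.03 and -0.18. With all lines these were 9.52% and 14.3%, against 4.04% and 7.45% of all genes tested. The lower members differed, since Gpi1, a glycolytic isomerase, was called only with all lines (log2 changes of -0.68 and -0.43 without M41) and Pfkl, a phosphofructokinase, only without M41 (-0.25 and -0.67). Txnip, an inhibitor of glucose uptake, was at 10926, 11141 and 11267 CP20M in Ve and at 2342, 4337 and 4898 in R4, with a log2 change of -1.59 ± 0.20 (limma adjusted p = 0.00119) and -1.28 without M41. Pfkfb3, an enzyme that speeds glycolysis, was at 811, 873 and 898 CP20M in Ve and at 1873, 2946 and 2837 in R4, with a log2 change of 1.52 ± 0.16 (limma adjusted p = 0.000489) and 1.68 without M41. The Ve values of both genes were nearly equal across lines and the R4 values stood clear of them. P4ha2, a hydroxylase of collagen, rose by 1.48 ± 0.21, and the hypoxia marker Car9 fell by 1.34 on the log2 scale.

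Of 15 NRF2 and xenobiotic genes tested, 7 were lower with all lines and 4 without M41, and none was higher, with medians of -0.63 and -0.23. Gstm1, a glutathione transferase, was at 495, 1523 and 483 CP20M in Ve and at 0, 159 and 128 in R4, with a log2 change of -3.19 ± 0.63 (limma adjusted p = 0.00878) and -2.44 without M41. Ugt1a1 and Ugt1a6a, enzymes that conjugate drugs, had nearly the same values in every sample because they share exons. They amount to 1 observation, although the counts above include both. Their log2 changes were -2.31 ± 0.39 and -2.35 ± 0.38. Gsr, glutathione reductase, was at 4540, 5747 and 4605 CP20M in Ve and at 1054, 3687 and 2294 in R4. The calls on the drug exporter Abcb1a (log2 changes of -1.59 and -1.05 without M41), on Gsta4 (-1.04 and -0.84) and on Abcc3 (-0.63 and -0.54) were lost without M41. NRF2 targets such as Hmox1, Gclc, Txnrd1 and Srxn1 were not called.

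Secreted regulators moved in both directions. Of 14 tested, 4 were higher and 2 lower with all lines, and 5 and 2 without M41, with medians of 0.25 and 0.66. Inhba, the beta A subunit of activin, was at 1096, 1555 and 968 CP20M in Ve and at 2576, 6987 and 7654 in R4, with a log2 change of 2.11 ± 0.48 (limma adjusted p = 0.0178) and 2.56 without M41. Csf1, a macrophage growth factor, was at 328, 291 and 422 CP20M in Ve and at 1054, 960 and 1419 in R4, and Lif, a cytokine of the interleukin 6 family, rose by 0.67 ± 0.15. Il18, an epithelial cytokine of mucosal defence, was at 3770, 2864 and 3000 CP20M in Ve and at 157, 507 and 612 in R4, with a log2 change of -3.04 ± 0.37 (limma adjusted p = 0.00106) and -2.35 without M41. Pigr, which carries IgA across the epithelium, was at 161, 336 and 252 CP20M in Ve and at 40, 20 and 5 in R4. All 4 of these per-sample series were separated between the groups. Cxcl1, a chemokine for neutrophils, was at 325, 273 and 245 CP20M in Ve and at 40, 550 and 441 in R4, was not called, and changed direction without M41, where its log2 change was 0.88 against -0.25 with all lines. Among interferon-stimulated genes, 12 of 25 were tested, with a median log2 change of -0.52 and -0.30 without M41. Oasl1 and Irf7 were lower (log2 changes of -3.41 ± 0.57 and -1.79 ± 0.37, and -2.94 and -1.86 without M41) and Bst2 was higher (1.27 ± 0.26, and 0.98 without M41). B2m, the light chain of class I antigen-presenting molecules, was at 1342, 1337 and 1372 CP20M in Ve and at 40, 2285 and 2304 in R4, where the M41 value is 1 read. It changed direction with that line, with a log2 change of -1.0 with all lines, which was not called, and of 0.75 without M41, which was called higher (limma adjusted p = 0.00443). Of 13 proteases and inhibitors tested, 1 was higher (7.69%, against 4.04% of all genes) and none lower (median 0.24), and 2 were higher without M41 (median 0.35). The gene higher with all lines was Plat, tissue plasminogen activator, at 1717, 4536 and 2693 CP20M in R4 against 1011, 806 and 1390 in Ve. Mmp14, a membrane matrix metalloprotease, was at 0, 746 and 3 CP20M in Ve and at 0, 1132 and 5 in R4, so that line M40 alone had more than a trace of it.

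Of 40 genes that the study singles out for organoids, 34 were tested, 9 were higher and 12 lower with all lines, and 10 and 9 without M41. Since the study chose them in part on these samples, the count is not independent evidence of a direction. Those not yet described include Casz1, a zinc-finger factor, at 975, 1471 and 1157 CP20M in Ve and at 469, 745 and 735 in R4, and Homer2, a scaffold protein, at 1442, 1534 and 1500 in Ve and at 586, 1037 and 859 in R4. Both were called lower with all lines only, with log2 changes of -0.88 and -0.80 without M41 for Casz1 (limma adjusted p = 0.0632) and -0.87 and -0.67 for Homer2 (limma adjusted p = 0.0843). Ptk7, a pseudokinase of Wnt signaling, was at 975, 1900 and 2844 CP20M in Ve and at 1366, 3059 and 4649 in R4. It was higher only without M41 (log2 change of 0.69, limma adjusted p = 0.0434), and each line lay above its own Ve level while the groups overlapped. Tnfrsf11b, the decoy receptor osteoprotegerin, Frk, Pdlim1 and Fam222a were not called. Inha, Ackr3, Adcy3, Vegfb, Cdc7 and Ascl2 were below the level tested.

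The higher concentration was examined by comparing R8 with R4 directly in the same lines. Of 10426 genes, 2 passed (0.0192%), both lower with R8, while 2011 had an unadjusted p under 0.05, and edgeR on whole reads called 45. Without M41, 5 genes passed, 1 higher and 4 lower. Prss22, a serine protease, was at 495, 497 and 454 CP20M in Ve, at 1288, 1147 and 1244 in R4 and at 285, 379 and 517 in R8. It was thus highest at the lower concentration in all 3 lines. Its log2 change from R4 to R8 was -1.63 (limma adjusted p = 0.0332) and -1.39 without M41. The call on Prss22 was lost without M40 (-1.67, limma adjusted p = 0.22) and without the block on line. Abca1, a cholesterol exporter, was at 580, 525 and 959 CP20M in Ve, at 547, 536 and 1090 in R4 and at 89, 56 and 138 in R8, a log2 change of -2.69 (limma adjusted p = 0.0497) that was not called without M41 (-2.84, limma adjusted p = 0.0605). Fn1 was at 224457, 165618 and 52413 CP20M in R8, Thbs1 at 21905, 10815 and 5380, and Lamb1 at 3717, 3061 and 691. For these 3 matrix genes lines M41 and M40 were higher with R8 than with R4 and line M1 was lower, so that the lines disagreed in direction. Egr1 reached 89, 256 and 183 CP20M and Txnip 1521, 1507 and 2096 in R8, below the R4 value of the same line in all 3. For Egr1 the difference was not called in either fit, and for Txnip, which shares its locus with the antisense Gm15441, it was called only without M41 (log2 change of -1.36, limma adjusted p = 0.0258, against -1.12 and 0.0634 with all lines). A p above the threshold with 3 lines does not show that both concentrations act alike.

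**Figure D5:**
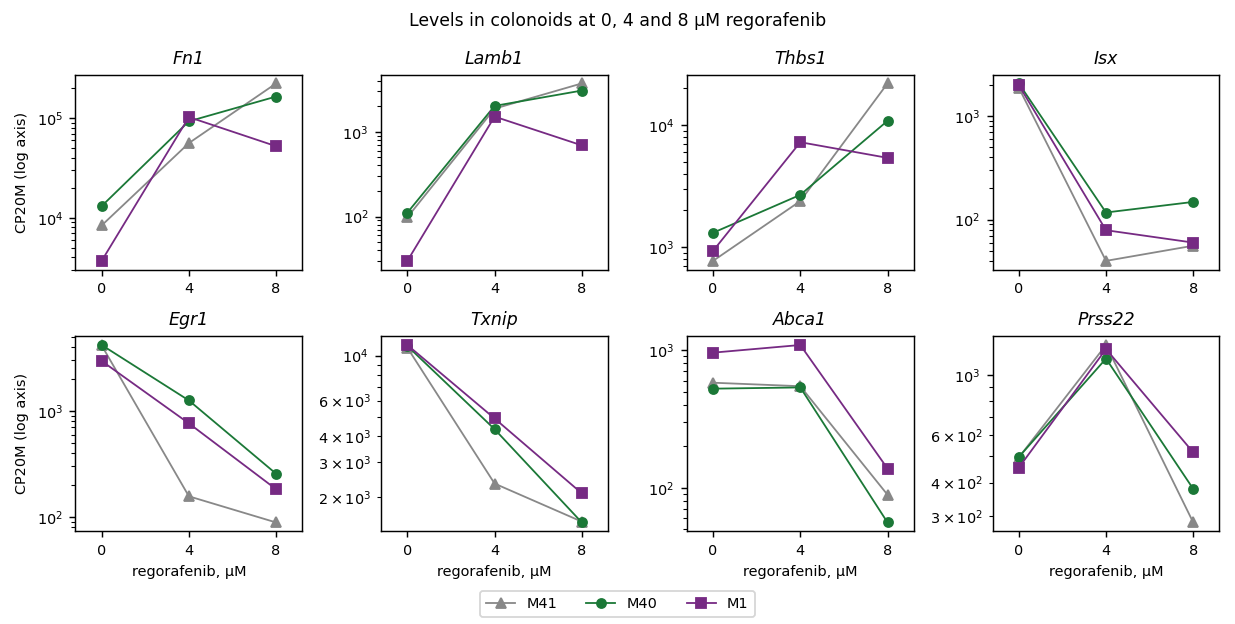
CP20M (log axis) of 8 genes at 0, 4 and 8 µM regorafenib, 1 line per colonoid line. Prss22 peaks at 4 µM in every line and Abca1 drops only at 8 µM, whereas Fn1, Lamb1 and Thbs1 go up from 4 to 8 µM in M41 and M40 and down in M1.

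The response to R4 was also compared with that of tumoroids by testing the difference of the changes. None of 10426 genes passed (0%), the smallest limma adjusted p was 0.142, and 365 genes had an unadjusted p under 0.05. edgeR on whole reads also called 0, with 299 genes at an unadjusted p under 0.05. The smallest adjusted p belonged to Clca1, which was at 15, 13 and 3 CP20M in tumoroids with Ve and at 6, 0 and 6 with R4, lines F11, M3 and M14 in that order, far below colonoids with Ve. Muc2, at 41, 1 and 10 CP20M in tumoroids with Ve, was likewise near its floor there before treatment. Among the main rises, Vim was at 6, 0 and 3 CP20M in tumoroids with Ve and at 326, 260 and 221 with R4, and Fn1 at 935, 1430 and 2802 with Ve and at 36033, 55721 and 157849 with R4. Isx was at 2814, 1959 and 1557 CP20M in tumoroids with Ve and at 426, 377 and 172 with R4, a fall in each line that was smaller than that of each colonoid line, with a difference of the log2 changes of 1.74 ± 0.36 (limma adjusted p = 0.794).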

How the data were processed

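The deposited signal is CP20M. Per the labels, reads were trimmed with Trimmomatic 0.36, aligned to GRCm38 with STAR 2.5.3a and counted per gene with HTSeq 0.9.1, and the authors scaled the counts to 20000000 per library and rounded them. The labels name a different library kit (Ovation SoLo) from the study's methods (a NEBNext directional kit), and the strand setting is not given in the sources used here, so values of genes that overlap others, such as Igfbp7 and Il18, are uncertain. Dividing by the value of 1 read returned whole reads, which gave the depths. Log2(CP20M + 20) of genes with at least 200 CP20M in 2 of the 6 samples was fitted with limma 3.58.1 (R 4.3.3) over 18 organoid samples, with 1 term per group and the line as a block, and two-sided p-values were adjusted by Benjamini-Hochberg over 10426 genes. edgeR 4.0.16 on whole reads was an alternative. Lines pair the samples because each came from 1 mouse: deviations of Ve and R4 correlated at 0.32, 0.40 and 0.43 within lines and at -0.28 to -0.12 between lines. The deviations were taken from the mean of the 3 lines of each group. Positive values within lines therefore push those between lines below 0. No 2 replicates agreed within sampling noise. Log2 changes of low genes are understated by the pseudocount.

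Named genes are the 12 largest rises and falls among protein-coding genes called that moved alike in 3 lines and reached 200 CP20M in M40 and M1 of the higher group, up to 6 called members per list and others given as levels, genes the study names, and the genes called for R8 against R4. The members, lists and tests were chosen with earlier results of these data known. Promoter sequences are from RefSeq (GRCm38.p6), matched by symbol. Columns with 5-fluorouracil and the fibroblast table were not used here, and some genes are not reported here although the counts include them. The fit was also run on simulated data, whose outcome is not reported here and is not used as support. Alternatives were no block, another pseudocount, no filter, TMM, array weights, fewer groups, leaving out samples and a stricter threshold.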

Additional observations from a re-analysis of the deposited data

Results flagged for a closer look

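For 2 genes that the study names, all 3 colonoid lines moved one way with R4 and all 3 tumoroid lines the other. They were singled out for this pattern from the 40 genes of the study that were looked up. The share of all genes tested that show the pattern is not given here. Frk, a kinase of the SRC family, had log2 changes from -1.18 to -0.34 in colonoids and from 0.25 to 0.59 in tumoroids, a difference of 1.06 (limma adjusted p = 0.794) that became 0.81 without line M41. Pdlim1, a cytoskeletal adaptor, had log2 changes from -0.68 to -0.03 in colonoids and from 0.22 to 1.10 in tumoroids, a difference of 1.01 (limma adjusted p = 0.794) and 0.83 without M41. Neither difference passed the test, and neither gene was called within colonoids.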

How the results depend on the processing

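The 1198 genes called between R4 and Ve (421 higher, 777 lower) became 784 without the block on line (497 lower), and 502 lower genes were called with no filter on low values. TMM scaling called 694 higher genes, edgeR on whole reads 704 higher and 500 lower, and leaving out the M41 R4 sample alone 756 higher. Array weights, whose estimation stopped before it converged, called 1998 genes, 932 of them higher. The 6 samples fitted alone gave 0 calls, 0 higher and 0 lower, and an adjusted p under 0.001 left 41 genes, 27 higher and 14 lower. Leaving out 1 line at a time gave 548 to 1248 calls, 212 to 661 higher and 336 to 587 lower. Of 103 named genes called, 54 were called under every alternative computed per gene except the fit on the 6 samples alone, and none changed direction under those. The stricter threshold was not computed per gene. Without the block, 78 of the 103 were still called.

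For R8 against R4, the 2 calls (0 higher, 2 lower) became 0 without the block, with no filter and with only the groups compared. They became 25 (9 higher, 16 lower) with a pseudocount of 100 CP20M, 36 (8 and 28) with TMM scaling, 45 (10 and 35) with edgeR, 1064 (426 and 638) with array weights and 30 (7 and 23) without the M41 R4 sample. Leaving out 1 line gave 0 to 11 calls, 0 to 8 higher and 0 to 4 lower. For the difference from tumoroids, every alternative run gave 0 calls except array weights, with 8 (7 and 1).

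Of the named genes recomputed under each alternative, the sign turned for 6, none of them called between R4 and Ve. Yap1 had a log2 change of 0.0306 with TMM scaling, 0.0372 with edgeR, 0.0497 without the M41 R4 sample and from -0.257 to 0.0018 when 1 line was left out. Cxcl1 had 0.56 with edgeR, 0.77 with array weights and 0.78 without that sample, and from -0.862 to 0.879 when 1 line was left out. Fam222a had -0.13 with array weights, -0.16 without that sample and from -0.143 to 0.0952 when 1 line was left out. The same ranges were -0.0354 to 0.294 for Vegfa, -0.196 to 0.649 for Tnfrsf11b and -0.0264 to 0.105 for Abca1. The cause of these shifts was not tested.

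In the M41 R4 library a value under about 40 CP20M could not be seen, and changes of low genes in that line rest on single reads. With 3 lines, a difference that misses the threshold does not show that values were alike.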
